A study of Mus musculus with 39 samples.

Results

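Gstt2 and 9 other genes of glutathione transferases and related enzymes were followed through mouse pancreatic tumour cells. The 10 genes were Gstt1, Gstt2 and Gstt3 of the theta class, Gsta4 of the alpha class, Gstm1, Gstm2 and Gstm5 of the mu class, Gstp1 of the pi class, Gsto1 of the omega class and the membrane-bound enzyme gene Mgst1. They were chosen by symbol from the 39017 genes of the deposited table. Gstt2 was proposed because it stood higher in T cell high than in T cell low clones in an earlier analysis of these data, so its values in that contrast are given as a description with no test.

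Glutathione transferases join the tripeptide glutathione to reactive compounds, which makes the products more soluble and ready for export. The cytosolic classes differ in sequence and substrates, and the mu and pi classes are best known for their part in drug resistance of tumours. Several of the genes are targets of the transcription factor NRF2, which the sensor KEAP1 holds back until oxidants or electrophiles release it. Mouse liver is rich in several alpha and mu class enzymes and in Mgst1.

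Messenger RNA was sequenced from sorted tumour cells of untreated tumours, taken 3 weeks after clones of pancreatic tumour cells had been placed under the skin of C57BL/6 mice. The 39 libraries came from 20 clones. The T cell low class had 9 clones with 18 libraries, the T cell high class 6 clones with 14 libraries, and the T cell intermediate class 2 clones with 4 libraries. A further 3 clones, with 1 library each, carried no class. All libraries shared the host strain, the site and the absence of treatment, and a class is a property of the clone. Titles such as yfp_6499c3 and yfp_6499c4 were read as sister clones c3 and c4 of the same parent line. Whether a clone's libraries are from different mice is not stated in the labels, so p-values measure the spread between these clones or libraries, which may be technical.

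Libraries held 7636278 to 103772099 counts, with a median of 34559637. Levels are given in CPM, counts scaled to a common library size with TMM factors, which correct for differences in composition between libraries. In 19 libraries the heart muscle genes Mb, Myl2, Myh6 and Myh7 summed to 157 to 4654 CPM and the liver genes Alb, Ahsg, Fga, Fgb, Cps1 and Mat1a to 496 to 15175 CPM. In the other 20 libraries, called heart-free, the heart sum was at most 0.230 CPM. Titles ending in number 1, called the tumour number here, belonged to 18 heart-bearing libraries and to 1 heart-free library. Epithelial markers of pancreatic ductal tumour cells (Krt8, Krt18, Krt19, Krt7, Epcam and Cdh1) summed to 5546 to 13214 CPM in heart-free high libraries and to 4578 to 9093 CPM in heart-free low libraries. Each level below is therefore given in heart-free libraries first.

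The theta class genes lie side by side on chromosome 10, all on the minus strand (GRCm38 with GENCODE M21). Gstt3 (ENSMUSG00000001665) spans 75774115 to 75781414, Gstt1 (ENSMUSG00000001663) 75783813 to 75798584, and Gstt2 (ENSMUSG00000033318) 75831114 to 75837424. Gstt4, between Gstt1 and Gstt2, was almost silent, at a mean of 0.0341 CPM over heart-free clones. The coding sequence of Gstt2 was 62.8% identical to that of Gstt1 and 63.6% to that of Gstt3, while Gstt1 and Gstt3 were 75.8% identical.

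Of all 50-base windows of the principal Gstt2 transcript, 1.22% also occurred in a transcript of another gene. No window of Gstt1, Gsta4, Gsto1 or Mgst1 did. For Gstt3 the share was 26.0%, all with the gene model Gm20441, and for Gstm1 it was 23.1%, mostly with the pseudogene Gstm2-ps1. For Gstm5 it was 14.4%, all with 4933431E20Rik, and for Gstm2 9.36%. The pi class pair was the closest. Gstp1 and its neighbour Gstp2 were identical at 621 of 633 coding bases, and 62.3% of Gstp1 windows also occurred in Gstp2. Reads from a stretch without a differing base fit either gene. The first 90 coding bases, the in-frame 90-base window in which the pair differs most, are shown with the 6 differing bases in capitals:
Gstp1: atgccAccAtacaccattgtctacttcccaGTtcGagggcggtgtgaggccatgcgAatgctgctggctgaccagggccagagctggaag
Gstp2: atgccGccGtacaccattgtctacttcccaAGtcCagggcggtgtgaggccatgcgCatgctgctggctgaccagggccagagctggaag
How the deposited counts treated reads that fit several genes is not given in the sources used here. The levels of Gstp1, Gstt3 and Gstm1, and less so of Gstm5 and Gstm2, are uncertain to that extent.

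Per kilobase of exon, Gsto1 and Gsta4 were the most abundant of the 10 transcripts in heart-free clones and Gstt2 the least. Gsto1 averaged 262 and Gsta4 259 CPM per kilobase over 17 clones, and their ranges over clones overlapped almost wholly. Gstp1 followed at 93.2, Gstm1 at 45.2, Mgst1 at 27.0, Gstt1 at 21.4, Gstm5 at 14.8 and Gstm2 at 7.64 CPM per kilobase. Gstt3 stood at 3.97 and Gstt2 at 2.20 CPM per kilobase. The ranges of neighbours in this order overlapped. Gstt2 made up 0.0129% to 0.962% of the summed level of the 10 genes per kilobase, so even its highest clone held far less of it than of Gsto1 or Gsta4.

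Gstt2 was, with Gstt1, one of the 2 members that varied most among clones. Its heart-free level ran from 0.475 to 32.2 CPM, a 67.8-fold range, and that of Gstt1 from 2.17 to 119 CPM, a 54.7-fold range. In T cell high clones the single heart-free libraries held 11.3 CPM (yfp_6556c4), 20.4 CPM (yfp_6620c1), 22.8 CPM (yfp_6555c3), 25.0 CPM (yfp_6499c4) and 32.2 CPM (yfp_7160c2). The 3 heart-free libraries of the sixth high clone, yfp_2838c3, held 4.12, 6.48 and 4.85 CPM. That clone stood apart from the other 5 in all 3 of its libraries.

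In T cell low clones the level was lower. Clone yfp_2699c4 held 0.450 and 0.501 CPM in its 2 heart-free libraries, yfp_6694c2 held 0.528 CPM and yfp_6556c3 0.745 CPM. Clones yfp_6421c2 and yfp_6419c4 held 1.40 and 1.42 CPM, and yfp_6419c5, yfp_6499c3 and yfp_6419c1 held 3.66, 4.53 and 6.37 CPM. The lowest 4 of these libraries rested on 16, 17, 17 and 23 reads, against 825 and 1149 reads in the highest 2 high libraries, so the low end is known less exactly.

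Over heart-free clones Gstt2 averaged 19.5 ± 9.72 CPM in 6 high clones and 2.39 ± 2.20 CPM in 8 low clones (mean ± SD), a ratio of 8.15. Of the 6 high clones, 5 lay above every low clone, and yfp_2838c3, at a mean of 5.30 CPM, lay below yfp_6419c1. Among all 15614 genes of this fit, 1.11% had at least 5 of 6 high clones above every low clone. The fitted log2 difference was 3.03 ± 0.62 (SE, edgeR), and 0.256% of tested genes had a larger one. Nothing is read from these shares, since this contrast led to the choice of Gstt2.

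**Figure D1:**
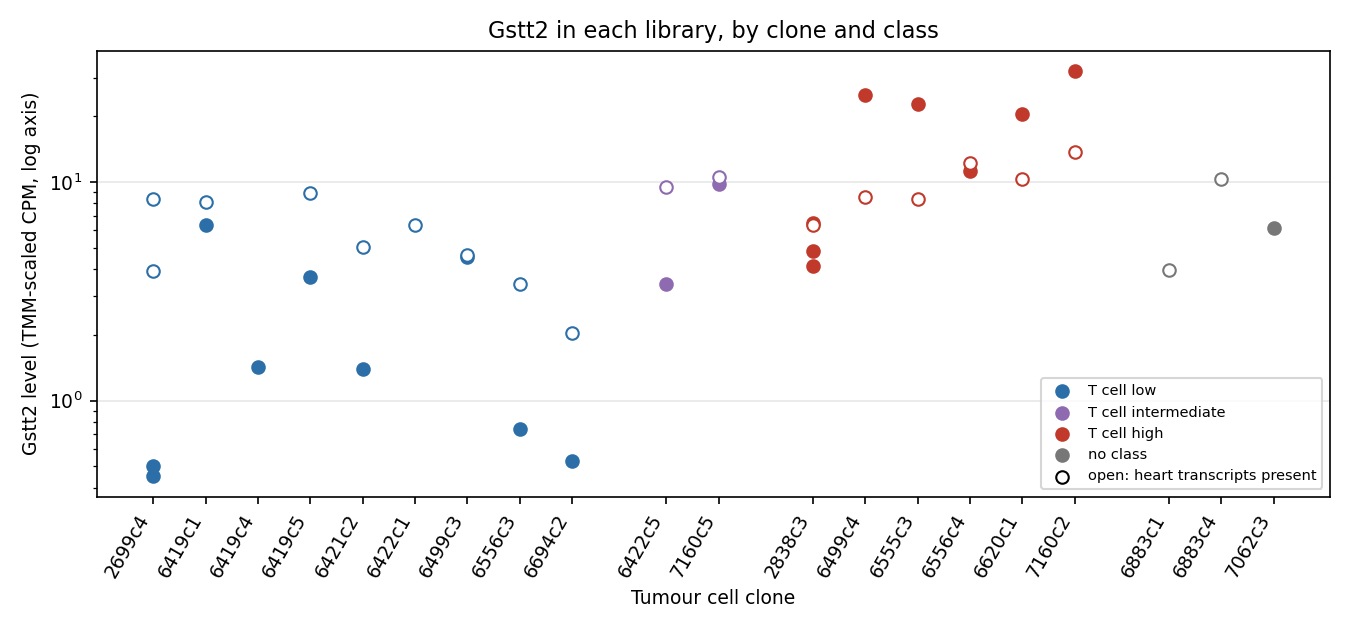
Gstt2 level of each of the 39 libraries, in TMM-scaled CPM on a log axis, by clone (titles without the prefix yfp_) and class. Filled points are heart-free libraries and open points hold heart transcripts. Filled high points reach 32.2 CPM and filled low points lie at or under 6.37 CPM, while open points lie between 2.04 and 13.7 CPM.

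The heart-bearing libraries showed a narrower picture. Gstt2 ranged from 6.34 to 13.7 CPM in the 6 high clones and from 2.04 to 8.86 CPM in the 8 low clones with such libraries, and the groups overlapped. Means were 9.90 ± 2.72 and 5.73 ± 2.37 CPM, with a log2 difference of 0.78 ± 0.29. Liver sums of these libraries were unequal between the classes. They ran from 8485 to 15175 CPM in high (median 13687) and from 496 to 14350 CPM in low libraries (median 5752). The part of liver transcripts in this difference was not tested. With all libraries of a clone summed, the means were 14.3 ± 5.18 CPM in 6 high and 3.90 ± 2.15 CPM in 9 low clones, and again 5 of 6 high clones lay above every low clone, as did those of 0.988% of 18529 genes. The sum of a clone thus mixes libraries in which the classes lay far apart with libraries in which they lay close.

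Liver transcripts were also uneven among heart-free libraries. The low libraries with the highest Gstt2, of yfp_6419c1, yfp_6499c3 and yfp_6419c5, had liver sums of 262, 19.0 and 10.3 CPM, and all other heart-free low libraries had at most 1.31 CPM. The 3 heart-free libraries of yfp_2838c3 had liver sums of 11.6, 16.2 and 35.8 CPM. In the remaining libraries, with liver sums under 10 CPM, the 5 high clones held 11.3 to 32.2 CPM of Gstt2 and the 5 low clones 0.476 to 1.42 CPM, a log2 difference of 4.60 ± 0.45. That setting was chosen after seeing the data, and it leaves out the high clone with the least Gstt2 together with the 3 low clones with the most.

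Markers of other cell types were present too. In heart-free libraries the leukocyte sum had a median of 139 CPM in high and 87.3 CPM in low libraries, the macrophage sum 769 and 207 CPM (5 of 6 markers in the table), and the T cell sum 1.70 and 0.457 CPM. All 3 ranges overlapped between classes. The fibroblast sum had medians of 375 and 794 CPM, with a maximum of 12346 CPM in the high library of yfp_6555c3. The endothelial sum was at most 151 CPM in high and 25.4 CPM in low libraries. Of these markers none was at 0 in all libraries of a class, and their part in the Gstt2 difference was not tested. In such bulk samples fewer cells with the transcript and less transcript per cell cannot be told apart.

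Clones of the same parent line showed the same order. The heart-free level of Gstt2 was 25.0 CPM in the high clone yfp_6499c4 and 4.53 CPM in its low sister yfp_6499c3. It was 11.3 CPM in the high clone yfp_6556c4 and 0.745 CPM in its low sister yfp_6556c3. The heart-bearing levels were 8.52 and 4.63 CPM in the first pair and 12.3 and 3.41 CPM in the other. The liver sums of those libraries were 14760 and 496 CPM in the first pair and 13685 and 1823 CPM in the other. Class and amount of liver transcripts therefore cannot be told apart in the heart-bearing pairs. With line as a block and each library as a replicate, 8 libraries gave a log2 difference of 2.21 ± 0.56. That SE mixes repeat libraries of a clone with heart-bearing and heart-free libraries, so it does not measure the spread between sister pairs. In a further line the high clone yfp_7160c2 held 32.2 CPM and its intermediate sister yfp_7160c5 held 9.84 CPM in heart-free libraries. These clones are part of the contrast that led to Gstt2, so the lines add no independent support.

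The other theta class genes had smaller differences between the classes than Gstt2. Gstt3, the nearest in sequence, averaged 20.2 ± 9.46 CPM in heart-free high clones (range 7.40 to 31.9) and 13.1 ± 9.02 CPM in low clones (range 3.20 to 31.7), a log2 difference of 0.63 ± 0.45. Its highest low clone, yfp_6419c5 at 31.7 CPM, and its highest high clone, yfp_7160c2 at 31.9 CPM, were almost level. Gstt1, which acts on small halogenated compounds, averaged 34.2 ± 12.2 CPM in high clones (range 20.2 to 54.0) and 37.9 ± 39.2 CPM in low clones.

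The low clones of Gstt1 were themselves split. The sister clones yfp_6419c1, yfp_6419c4 and yfp_6419c5 stood high, at 54.1, 64.2 and 119 CPM. The other 5 ran from 2.17 CPM in yfp_6694c2 to 18.4 CPM in yfp_6556c3. Over all 8 low clones the range of 2.17 to 119 CPM enclosed that of the high clones. The log2 difference between the classes was -0.13 ± 0.62 with all clones and 1.36 ± 0.45 without these 3 sisters, the latter chosen after seeing the data. For Gstt2 the same omission gave 3.66 ± 0.71. Over 17 heart-free clones, log2 levels of Gstt1 and Gstt3 had a Pearson r of 0.77, those of Gstt2 and Gstt3 one of 0.64 and those of Gstt1 and Gstt2 one of 0.42. These are descriptions, since clones share parent lines and genes of a clone share a library.

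**Figure D2:**
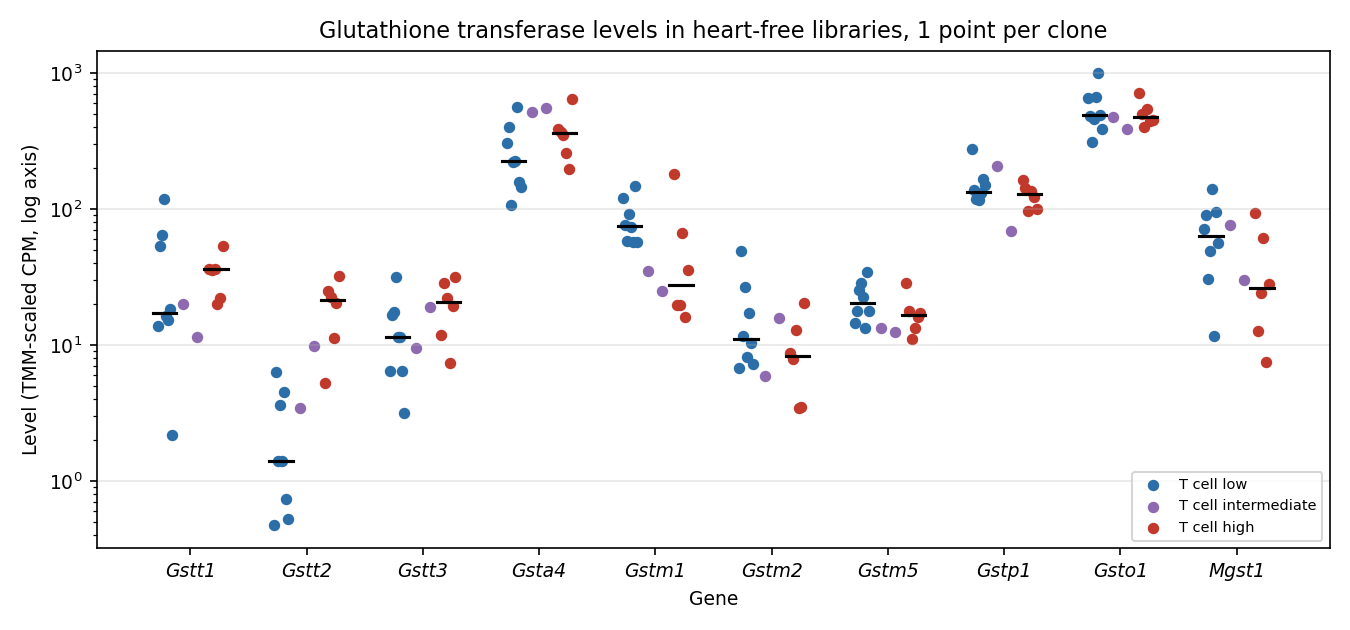
Heart-free level of the 10 genes by clone, in TMM-scaled CPM on a log axis, with 1 point per clone and a bar at the median of the low and of the high clones. Gstt2 points of the classes overlap through a single high clone at 5.30 CPM, and for the other 9 genes the 2 classes overlap.

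Gsta4, which removes the lipid peroxidation product hydroxynonenal, was among the most abundant members, and its levels in the classes overlapped. It stood at 369 ± 156 CPM in heart-free high clones (197 to 649) and 267 ± 154 CPM in low clones (108 to 566), a log2 difference of 0.47 ± 0.36. Clone yfp_7160c2, which had the most Gstt2, also had the most Gsta4. Over all libraries the Gsta4 means were 311 ± 104 and 311 ± 211 CPM, and the log2 difference was -0.04 ± 0.38.

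Gsto1, a thiol transferase that reduces dehydroascorbate, and Gstp1 were the steadiest members over heart-free clones together with Gstm5. Gsto1 stood at 512 ± 112 CPM in high and 559 ± 215 CPM in low clones (log2 difference -0.13 ± 0.23), with yfp_6499c3 highest at 998 CPM. Gstp1 stood at 127 ± 25.8 and 154 ± 51.8 CPM (log2 difference -0.27 ± 0.19), with yfp_2699c4 highest at 275 CPM and its 2 heart-free libraries at 280 and 269 CPM. The lowest Gstp1 was in the intermediate clone yfp_7160c5, at 68.6 CPM.

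The mu class genes and Mgst1 had negative log2 differences in heart-free clones, the opposite sign to Gstt2. Gstm1 ran from 57.2 to 148 CPM in the 8 heart-free low clones, with a median of 75.7 CPM. In high clones it was 16.1 CPM (yfp_6620c1), 19.6 CPM (yfp_6499c4), 19.8 CPM (yfp_6555c3), 35.9 CPM (yfp_7160c2) and 66.7 CPM (yfp_6556c4), while yfp_2838c3 held 155, 161 and 218 CPM in its 3 libraries. The log2 difference was -0.60 ± 0.50. When each clone was left out, it ran from -1.43, without yfp_2838c3, to -0.41, without yfp_6620c1. The high clone with the least Gstt2 was thus the one with the most Gstm1, above every low clone.

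Gstm2 stood at 9.53 ± 6.47 CPM in high and 17.2 ± 14.6 CPM in low clones (log2 difference -0.84 ± 0.53), and Gstm5 at 17.4 ± 6.05 and 21.9 ± 7.38 CPM (-0.33 ± 0.25). The highest Gstm2 level, 49.5 CPM, was that of yfp_6419c1, the heart-free library with the liver sum of 262 CPM. The heart-bearing library of that clone had a liver sum of 12164 CPM and held less Gstm2, 37.1 CPM. Mgst1, a membrane enzyme with transferase and peroxidase activity, stood at 38.0 ± 33.2 CPM in high clones (7.53 to 93.8) and 68.4 ± 40.7 CPM in low clones (11.8 to 141), a log2 difference of -0.84 ± 0.57. As with Gstm1, its highest high clone was yfp_2838c3. When each clone was left out, the log2 difference of Mgst1 ran from -1.34, without yfp_2838c3, to -0.60, without yfp_6421c2.

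Across the 17 heart-free clones the Pearson r of log2 levels was -0.67 for Gstt2 and Gstm1, -0.58 for Gstt2 and Mgst1, and 0.74 for Gstm1 and Mgst1. In the 18 clones with heart-bearing libraries the r of Gstt2 and Gstm1 was 0.59, of the opposite sign. The points share parent lines, and in heart-bearing libraries they also share an amount of liver transcripts that differs from library to library.

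**Figure D3:**
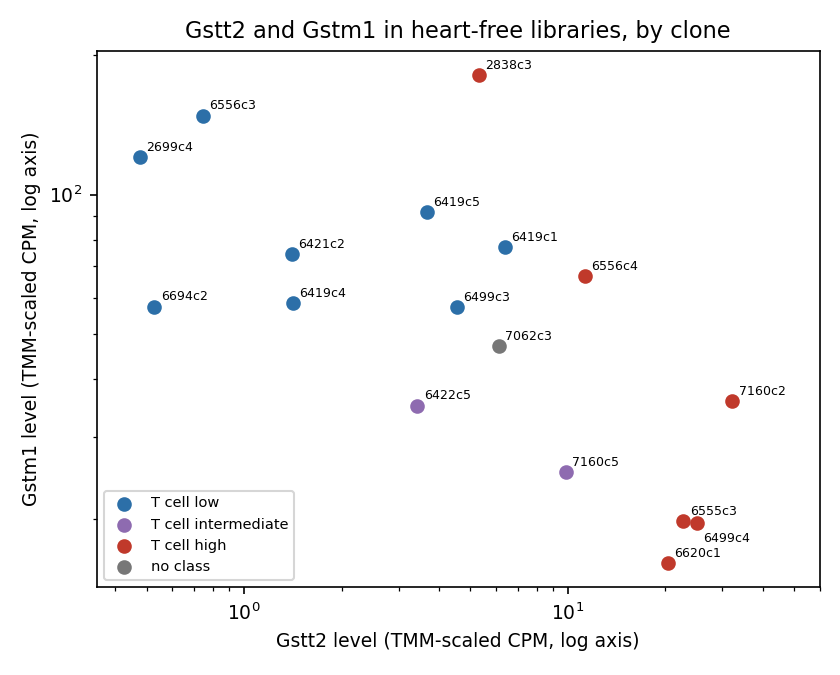
Gstm1 against Gstt2 in heart-free libraries of 17 clones, both in TMM-scaled CPM on log axes, with 1 labelled point per clone coloured by class. Most clones rich in Gstt2 lie low on the Gstm1 axis, down to 16.1 CPM, but yfp_6556c4, at 66.7 CPM of Gstm1, lies within the low range. The high clone yfp_2838c3 lies among the low clones on the Gstt2 axis and above them on the Gstm1 axis.

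In the high against low fits, 0 of the 10 members and 0% of all genes were called, at an edgeR adjusted p under 0.05, over all libraries (18529 genes) and over heart-free libraries (15614 genes). At an unadjusted p under 0.05 there were 2175 and 2093 genes, and DESeq2 called 154 and 380. Of the 10 log2 differences in heart-free libraries 3 were positive, those of Gstt2, Gstt3 and Gsta4, with a median of -0.20 over the members. Over all tested genes the median was -0.0024, and 49.6% were positive. The mu class genes and Mgst1 changed sign or shrank with the libraries used. Gstm1 went from -0.60 in heart-free to 0.10 in all libraries, Gstm2 from -0.84 to -0.17 and Mgst1 from -0.84 to -0.0035. Gstt2 and Gstt3 were the 2 members with positive differences in all 3 sets of libraries, of which the heart-bearing set had unequal liver sums between the classes.

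**Figure D4:**
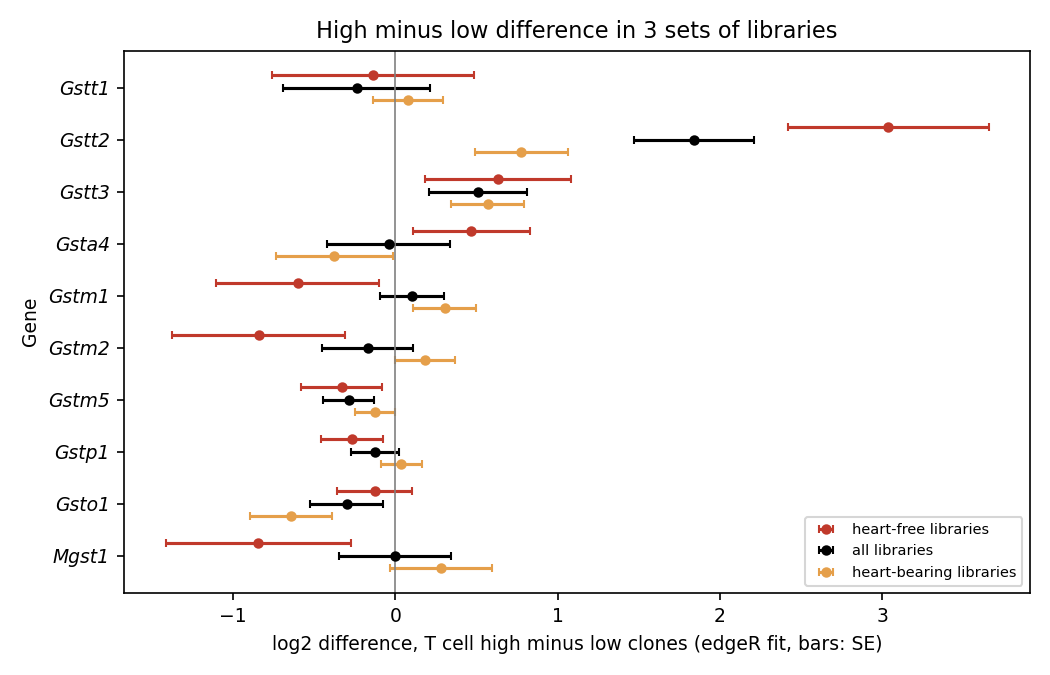
Log2 difference of T cell high minus low clones for the 10 genes, as points with SE bars from edgeR fits of heart-free, all and heart-bearing libraries. Gstt2 lies at 3.03, 1.84 and 0.78 in the 3 sets, and the mu class genes and Mgst1 lie left of 0 in heart-free libraries.

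The 2 intermediate clones took no part in the contrast that led to Gstt2, and could be tested. Gstt2 stood at 3.43 CPM in yfp_6422c5 and 9.84 CPM in yfp_7160c5 in heart-free libraries, and at 9.49 and 10.5 CPM in heart-bearing ones. Both heart-free values lay above the low median of 1.41 CPM and below the high median of 21.6 CPM. Both heart-bearing values lay above the low median of 5.69 CPM and also above the high median of 9.41 CPM in such libraries. Over all libraries the log2 difference was 1.01 ± 0.51 from low clones (edgeR adjusted p = 0.997) and -0.82 ± 0.59 from high clones (adjusted p = 0.99997), so neither passed the test. Both comparisons use clones of the high against low contrast on their other side.

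Of the other members none passed either. The largest differences from low clones were in Gstt1, at -0.65 ± 0.69, Gsta4, at 0.61 ± 0.52, and Gstm5, at -0.60 ± 0.24 (edgeR adjusted p = 0.9997, 0.9997 and 0.878). Gsta4 was high in both intermediate clones, at 515 and 558 CPM in heart-free libraries, against a high median of 360 and a low median of 225 CPM. Gstm1 was low in both, at 35.1 and 25.3 CPM. Among all 20003 genes, edgeR called 0.005% against low clones, which was the single gene H2-M2, and 0% against high clones. The unadjusted p was under 0.05 for 1008 and 413 genes. DESeq2 called 20 and 0. On simulated data for the comparison with low clones (19724 genes), a change of log2 1 was recovered in 24% and one of log2 2 in 83% of the altered genes.

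Within clones, heart-bearing and heart-free libraries differed at many genes, and 5 of the 10 members were among them. Over the 34 libraries of the 15 clones with both kinds, edgeR called 59.7% of 16460 genes, 33.4% higher and 26.3% lower in heart-bearing libraries. Of the members 4 were higher and 1 lower, a share near this background. Gstm1 was higher by 1.87 ± 0.28 on the log2 scale (adjusted p = 8.85e-06), in 14 of 15 clones. Mgst1 was higher by 1.58 ± 0.28 (adjusted p = 6.99e-05), in 15 of 15 clones, and Gstm2 by 1.43 ± 0.22 (adjusted p = 1.58e-05), in 14 of 15. Gstp1 was higher by 0.34 ± 0.10 (adjusted p = 0.00490), in 11 of 15 clones.

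Gsto1 was lower in heart-bearing libraries, with a log2 difference of -0.55 ± 0.11 (edgeR adjusted p = 0.000286), in 13 of 15 clones. Gsta4 missed the threshold, at -0.25 ± 0.11 (adjusted p = 0.0575), and passed it with 11 of the alternatives, among them DESeq2 (adjusted p = 0.0434). Gstt1, at -0.28 ± 0.25, Gstt3, at 0.17 ± 0.18, and Gstm5, at 0.16 ± 0.10, did not pass. Heart and liver sums define or follow this division of libraries, so the amount of those transcripts and any other feature of tumour number 1 cannot be told apart.

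Gstt2 did not pass this test, at 0.69 ± 0.38 (edgeR adjusted p = 0.121). In the 7 low clones with both kinds its heart-bearing library was the higher one, by 0.03 to 3.95 on the log2 scale. In 4 of the 6 high clones it was the lower one, with log2 ratios of -0.98 to -1.56, and in yfp_6556c4 and yfp_2838c3 the values were 0.12 and 0.26. The difference in shift between the classes was not tested, because it is the same contrast seen in another way. Without yfp_2699c4, the clone with the largest shift, the log2 difference was 0.31.

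**Figure D5:**
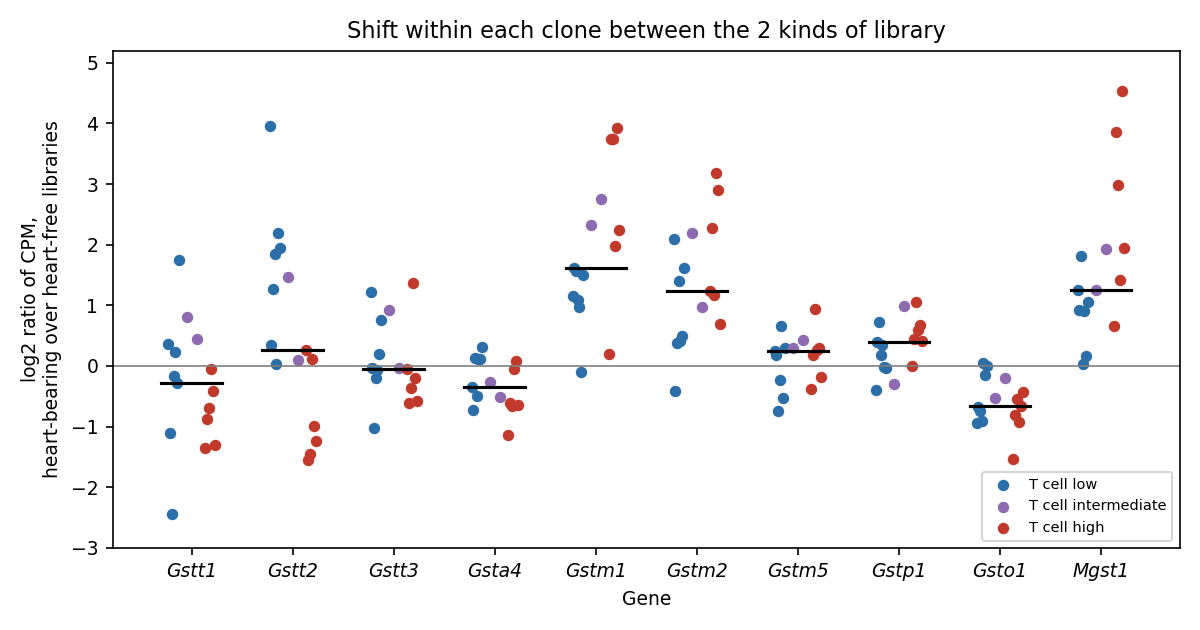
Log2 ratio of CPM in heart-bearing over heart-free libraries within each of 15 clones, for the 10 genes, coloured by class, with a bar at the median. Mgst1 lies above 0 in all 15 clones and Gstm1 and Gstm2 in 14, Gsto1 lies below 0 in 13, and for Gstt2 the low clones lie at or above 0 and 4 high clones below it.

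Genes beside Gstt2 on chromosome 10 had smaller log2 differences between the classes. In heart-free clones Mif, a cytokine gene and the nearest one beyond Gstt2, stood at 194 ± 46.5 CPM in high and 185 ± 36.4 CPM in low clones, and its log2 difference was 0.07 ± 0.16. Ddt, a Mif homologue next to Gstt3, stood at 13.1 ± 5.89 and 9.75 ± 6.26 CPM (0.44 ± 0.41), Cabin1 differed by 0.03 ± 0.13 and the chromatin remodelling gene Smarcb1 by 0.18 ± 0.11. Derl3, an endoplasmic reticulum gene, differed by 1.41 ± 0.71 at a low level, 2.53 ± 2.16 against 0.960 ± 1.05 CPM. Ggt5, also at a low level, differed by 1.60 ± 0.71, at 3.14 ± 3.10 against 1.04 ± 0.886 CPM, and Ggt1 by -0.27 ± 1.14. Of the 11 listed neighbours, Gstt1 and Gstt3 included, 10 were tested, 8 had a positive and 2 a negative difference, and the median was 0.24. None was called, but edgeR called 0% of all 15614 genes of this fit, and the same holds for the lists below.

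Among 18 other transferase genes, 14 were tested in heart-free clones, with 5 positive and 9 negative differences, a median of -0.13 and 0 calls. Over all libraries 16 were tested, with 10 positive and 6 negative differences and a median of 0.19. The most abundant per kilobase were Mgst3, at 97.6 ± 20.8 CPM in high and 99.3 ± 31.5 CPM in low clones, and the prostaglandin E synthase gene Ptges, at 49.5 ± 58.2 and 85.9 ± 65.7 CPM. Gsto2, which lies next to Gsto1 on chromosome 19, had the most negative difference, -1.24 ± 0.30. Its level was low, at 1.53 ± 0.391 CPM in high and 3.62 ± 1.60 CPM in low clones. The highest high and the lowest low clone were almost level, at 2.003 and 2.007 CPM. Gsto2 was picked by the size of this difference, so nothing is read from it. The prostaglandin D synthase gene Hpgds had the most positive one, 1.34 ± 0.79, with a range of 0.435 to 12.7 CPM over high clones.

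Enzymes that make and recycle glutathione showed no common direction. Of 17 tested genes 8 were positive and 9 negative, with a median of -0.05 and 0 calls, and over all libraries 10 were positive and 7 negative. Gclc and Gclm, the subunits of the rate-limiting ligase, stood at 199 ± 94.3 against 267 ± 90.9 CPM and at 88.2 ± 34.9 against 117 ± 34.0 CPM. Gsr, which regenerates reduced glutathione, was the most abundant per kilobase, at 536 ± 190 and 661 ± 280 CPM, followed by Slc3a2, the partner chain of the cystine transporter, at 212 ± 54.7 and 227 ± 49.6 CPM. The cystine transporter gene Slc7a11 had the most negative difference, -1.55 ± 0.67, with 9.74 to 103 CPM in high and 12.6 to 252 CPM in low clones, which overlapped. The dipeptidase gene Dpep1 had the most positive one, 2.29 ± 1.05, which rested on 1 clone at 12.1 CPM among means of 2.24 and 0.469 CPM.

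Among 14 genes that use glutathione, 12 had a positive and 2 a negative difference in heart-free clones, with a median of 0.17 and 0 calls, where 49.6% of all tested genes were positive. Over all libraries the same list had 8 positive and 6 negative differences and a median of 0.02. The peroxidase gene Gpx8 was the most negative in heart-free clones, at -0.36 ± 0.55, with 16.8 ± 16.8 CPM in high and 21.8 ± 12.2 CPM in low clones. The secreted peroxidase gene Gpx3 differed by 2.44 ± 0.66, at 39.6 ± 55.5 CPM in high clones (3.52 to 151) and 7.44 ± 3.53 CPM in low clones (3.19 to 13.7), and the ranges overlapped. Gpx3 was also 2.83 ± 0.32 higher on the log2 scale in heart-bearing than in heart-free libraries (edgeR adjusted p = 2.59e-07). The gut-type peroxidase gene Gpx2, named after its values were seen, differed by 1.92 ± 0.59, at 37.3 ± 22.5 and 9.97 ± 8.40 CPM, and its heart-free log2 level had an r of 0.75 with Gstt2. The abundant peroxidase genes Gpx1 and Gpx4 differed by 0.18 ± 0.16 and 0.27 ± 0.20.

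Genes of the NRF2 system lay on both sides of 0. Of 22 genes tested 7 were positive and 15 negative, with a median of -0.08 and 0 calls. The regulator genes Nfe2l2 and Keap1 differed by -0.05 ± 0.15 and -0.23 ± 0.23, and the target Nqo1 by -0.83 ± 1.02, at 4.82 ± 6.94 and 8.60 ± 6.81 CPM. Txn1 and Prdx1, the most abundant per kilobase, differed by 0.12 ± 0.35 and 0.23 ± 0.14, and the epoxide hydrolase gene Ephx1 by 0.32 ± 0.28. Of 8 members with a promoter entry from RefSeq (GRCm38.p6, 250 bases before to 50 after the start), Gstm5 and Mgst1 held the antioxidant response element core TGACNNNGC on either strand, as did 12.4% of 32851 promoters. Gstt2 and Gsta4 were not among the 8.

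Of 7 exporter genes 6 were tested, with 2 positive and 4 negative differences, a median of -0.27 and 0 calls. Abcc5, a transporter of organic anions, was the most negative, at -1.01 ± 0.21, with 101 ± 31.2 CPM in high (83.1 to 164) and 205 ± 51.3 CPM in low clones (110 to 278). In heart-bearing libraries Abcc5 was higher by 0.76 ± 0.15 (edgeR adjusted p = 0.000172). Abcc4 differed by 0.30 ± 0.25. The lists of the pathway held no edgeR call between the classes, but edgeR called 0% of all 15614 genes of the heart-free fit. The lack of calls is therefore nothing particular to these lists, whose genes lay on both sides of 0.

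The genes most like Gstt2 over heart-free clones were picked by Pearson r of log2 CPM over 17 clones, among 11111 genes whose mean level there was 5 CPM or more. They were the zinc finger gene Zfp524 (r = 0.86), the epithelial transcription factor gene Ehf (0.85), the syntaxin gene Stx3 (0.84), the phosphatase gene Ppm1j (0.84) and the kinase-like gene Vrk3 (0.83). Ehf stood at 174 ± 50.2 CPM in high clones (76.7 to 215) and 76.2 ± 48.1 CPM in low clones (12.8 to 162). As with Gstt2, its lowest high clone was yfp_2838c3, which also held for Zfp524, Stx3 and Vrk3 but not for Ppm1j. Such likeness comes with the choice, since these genes were picked for following Gstt2 over the same clones. Stx3 stood at 28.3 ± 6.97 and 16.9 ± 6.99 CPM, and Zfp524 at 9.79 ± 1.79 and 7.80 ± 2.25 CPM, a far smaller span than that of Gstt2.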

How the data were processed

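The authors' deposited table held raw counts of reads for 39017 genes in 39 libraries. The submitters' processing notes name STAR, featureCounts and the build mm10. Their versions, annotation release and strand setting were not given in the sources used here, so reads of overlapping or antisense genes may be shared. Where a symbol was repeated (162 symbols), its row with most counts was kept.

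Counts were summed per clone and fitted with edgeR 4.0.16 (quasi-likelihood test, R 4.3.3) after filterByExpr and TMM scaling, with Benjamini-Hochberg adjusted p under 0.05 over all genes tested. Libraries within clones were tested with the clone as a block, and sister clones with the line as a block. Heart-free libraries had a heart sum under 10 CPM. SEs are the log2 difference divided by the square root of the F statistic. Alternatives were RLE scaling, no filter, DESeq2 1.42.0, leaving out each clone or library, libraries as replicates and blocks. Same-numbered libraries of sister clones deviated together (correlations of 0.53 and 0.77, mirrored within a clone, so 2 values), and there number 1 was also the heart-bearing library. Between the classes 80 of 93 same-numbered pairs had a correlation over 0.1 (median 0.38, lowest -0.71), against a median of -0.43 for different numbers. Since not every pair was over 0.1, the number entered as a block in alternatives alone.

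Members and lists were chosen with earlier results of these data known. Named genes were the 10 members, the listed neighbours, and per list the 2 with the highest level per kilobase and those with the largest and the smallest heart-free difference. A gene that this rule picks is not reported here. The 5 genes most like Gstt2 were ranked on log2 CPM with a prior count of 2. Gclc, Gclm, Nfe2l2 and Keap1 were named for their roles, after their values were seen. Annotation was GENCODE M21, which held 37693 of the gene identifiers. Sequences were read from it, and promoters came from RefSeq. Simulated data in which 200 genes were changed served to test the fits. The changed genes were drawn from those with a mean of at least 5 CPM. In the fit of heart-free clones (15398 genes), a change of log2 1 was recovered in 57% and a change of log2 2 in 89% of the changed genes. In the fit of sister clones (15687 genes) these shares were 2% and 31%, and 13.2% of its calls were false. The lack of calls in sister clones therefore says little.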

Additional observations from a re-analysis of the deposited data

Results flagged for a closer look

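Among 40 groups of clones that were screened for a single far value, 7 held one. The cut-off is meant to flag about 1 in 20 independent groups of normally spread values. These levels were not logged, both ends were screened, and the groups share libraries. No excess over chance is therefore read from the 7. In heart-free libraries yfp_2838c3 had the highest Gstm1 of the 6 high clones, 181 CPM against 66.7 CPM in the next. Of the 8 low clones yfp_6419c1 had the highest Gstm2, 49.5 CPM against 26.9 CPM, and yfp_2699c4 the highest Gstp1, 275 CPM against 167 CPM. The yfp_6419c1 value came from 1 library that held 129 CPM of Alb. The heart-bearing library of that clone held 5655 CPM of Alb and 37.1 CPM of Gstm2.

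Over all libraries yfp_7160c2 had the highest Gsta4 of the high clones, 507 CPM against 312 CPM, and the lowest Gstp1, 121 CPM against 154 CPM. Clone yfp_2838c3 had the highest Gstm5 of the high clones, 26.2 CPM against 18.9 CPM. Clone yfp_6499c3 had the highest Gsto1 of the low clones, 1025 CPM against 548 CPM.

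Gsta4 moved in opposite directions in the sister clones. Its libraries were lower in the high clone yfp_6499c4 than in its low sister yfp_6499c3, with a log2 ratio of -0.94. They were higher in the high clone yfp_6556c4 than in its low sister yfp_6556c3, with a log2 ratio of 0.62. That difference was not tested.

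The clone yfp_6883c4 has no class and entered no comparison. Its heart-bearing library held 10.3 CPM of Gstt2 and 19.3 CPM of Gstt3, above the highest heart-bearing low libraries, at 8.86 and 16.7 CPM.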

How the results depend on the processing

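The log2 difference of Gstt2 between high and low clones was positive under each alternative run. It ran from 1.70 to 2.003 over all libraries and from 2.83 to 3.43 in heart-free libraries when each clone was left out, and from 1.87 to 2.62 in sister clones when each library was left out. It was 0.78 with heart-bearing libraries alone, whose liver sums were unequal between the classes. With heart-free libraries with a liver sum under 10 CPM it was 4.60. The count of called genes there was 1, which was Gstt2. That is no test of Gstt2, since this contrast led to its choice and the setting, chosen after seeing the data, drops its lowest high clone and its 3 highest low clones. Counts of called genes depended on the tool. DESeq2 called 154 genes over all libraries, 380 in heart-free libraries, 346 in sister clones and 20 for intermediate against low clones, where edgeR called 0, 0, 0 and 1. Leave-one-out counts were 0 to 16 over all libraries and 0 to 37 in heart-free libraries, both highest without yfp_2838c3, and 0 to 99 for intermediate against low clones, highest without yfp_6422c5. Without yfp_7160c2 that count was 6, and in heart-free libraries alone it was 0. With each library as a replicate, 9 genes were called over all libraries, 8 with tumour number as a replicate block and 128 with heart-bearing or heart-free as a block. Libraries of a clone are not independent, so these counts may be too large. With line and tumour number as a block, the sister clones gave 0 calls, and the log2 difference of Gstm1 went from 0.51 to -0.10. The blocks changed no call of a member. In sister clones without the heart-bearing library of yfp_6499c4, Gstm1 was at -0.57 and Mgst1 at -0.04, and without that of yfp_6556c4 Gstm2 was at -0.50. The causes were not tested. Depth limited Gstt2 most, which fell to 16 reads in a library.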

Other observations

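The other clones with no class were yfp_7062c3, whose only library was heart-free, and yfp_6883c1, whose only library was heart-bearing. In yfp_7062c3 Gstt2 stood at 6.13 CPM, Gstt3 at 4.12 CPM, Gstm1 at 47.2 CPM and Gstm2 at 1.16 CPM, the lowest Gstm2 level of any library. In yfp_6883c1 Gstt2 stood at 3.95 CPM, Gsta4 at 87.2 CPM and Gsto1 at 199 CPM, the lowest Gsta4 and Gsto1 levels of any library. The low clone yfp_6422c1 had a heart-bearing library alone, with 6.33 CPM of Gstt2 and 724 CPM of Gsta4, the highest Gsta4 level of any library.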
